A study of Homo sapiens with 6 samples.

Results

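Plakoglobin (JUP), the classical cadherins CDH1, CDH2 and CDH6, the catenins CTNNB1 and CTNNA1, and the desmosome genes DSP, DSG2, PKP2 and PKP3 were followed as named genes of cell-cell junctions. All 10 were found among the 24551 genes of the expression tables, and all 10 reached the mean of 1 FPKM over the 6 libraries that was required for testing, as did 11865 genes in all. FPKM counts fragments relative to transcript length and to all fragments mapped in a library, so levels of different genes can be set side by side. CDH1, CDH2, CDH6 and PKP2 were under 1 FPKM in the cell line where they were low. CDH1, CDH2 and CDH6 therefore passed this filter wholly, and PKP2 mostly, through the line where they were high.

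The RNA came from DU145, a prostate carcinoma line derived from a brain metastasis, and from 769-P, a renal cell adenocarcinoma line. Each line was transfected with a control siRNA (NC), with SPOP siRNA 1 or with SPOP siRNA 2, and each of these gave 1 polyadenylated RNA library. SPOP is the substrate-binding subunit of a CUL3 ubiquitin ligase, and the comparison asks how its knockdown altered expression in each line. All libraries carry a transfection, each line is a single cell line, and the control of each line has no replicate library.

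Classical cadherins are calcium-dependent adhesion receptors that join neighbouring cells at adherens junctions. Their cytoplasmic tails bind beta-catenin or plakoglobin, which in turn bind alpha-catenin and so connect the cadherins to actin. Desmosomes use desmosomal cadherins such as desmoglein 2, with plakoglobin and plakophilins as linkers and desmoplakin as the anchor to keratin filaments. Plakoglobin belongs to both kinds of junction, and beta-catenin also acts as the transcriptional partner of TCF factors in Wnt signalling. E-cadherin (CDH1) marks epithelia, while N-cadherin (CDH2) and cadherin 6 (CDH6) are found among others in renal tubule cells.

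In GRCh37 coordinates, JUP lies on chromosome 17 from 39910856 to 39943183, CDH1 on chromosome 16 from 68771195 to 68869440, CDH2 on chromosome 18 from 25512843 to 25757910 and CDH6 on chromosome 5 from 31193793 to 31329253. CTNNB1 lies on chromosome 3 from 41236232 to 41301587 and CTNNA1 on chromosome 5 from 137946656 to 138270723. DSP lies on chromosome 6 from 7541571 to 7586947, DSG2 on chromosome 18 from 29078140 to 29128971, PKP2 on chromosome 12 from 32943679 to 33049732 and PKP3 on chromosome 11 from 392614 to 404908. JUP and PKP3 overlap no other annotated gene. CDH1, CDH2, CDH6, CTNNB1, CTNNA1, DSG2, DSP and PKP2 each overlap an annotated gene, long noncoding RNA or pseudogene on the other strand, and strand was not kept by the library kit that the sample labels name, so reads of such pairs cannot be told apart.

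Promoter sequence from RefSeq was matched for 6 of the 10 genes by symbol, in windows of 250 bases before a start on GRCh38.p14, each placed on GRCh37 by a single exact match. CDH1, CDH6, PKP2 and PKP3 had no entry. Shown are CDH2, which among the 10 genes had the largest line difference on the log2(FPKM + 1) scale, DSG2, whose changes had opposite signs in the lines, and a stretch of 30 bases ahead of the second listed start of JUP, which had the highest values with both siRNAs relative to the control in 769-P among the 10 genes. Each is written 5′ to 3′ on the strand of its gene, with capitals for the E-box CACCTG (or its reverse complement CAGGTG), the CCAAT box (or ATTGG) and the GC box GGGCGG (or CCGCCC).
CDH2, chr18:25757095-25757344, minus strand: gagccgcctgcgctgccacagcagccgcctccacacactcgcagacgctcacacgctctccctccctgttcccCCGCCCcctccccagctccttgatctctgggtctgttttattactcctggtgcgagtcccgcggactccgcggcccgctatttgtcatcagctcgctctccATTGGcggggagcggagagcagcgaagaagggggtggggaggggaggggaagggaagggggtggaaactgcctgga
DSG2, chr18:29077890-29078139, plus strand: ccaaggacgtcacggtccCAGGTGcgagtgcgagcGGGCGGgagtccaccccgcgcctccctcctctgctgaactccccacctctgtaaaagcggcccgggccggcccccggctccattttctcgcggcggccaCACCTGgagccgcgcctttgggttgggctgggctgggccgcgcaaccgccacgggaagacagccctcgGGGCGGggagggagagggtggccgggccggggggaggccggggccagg
JUP, chr17:39942259-39942288, minus strand: tggcccCACCTGccgagCAGGTGagcgcac
The JUP stretch was cut around its E-boxes, 1 in each orientation, so nothing is read from their presence in it. The window it was cut from overlaps annotated exons, and the window of the first listed JUP start held 0 E-boxes. The DSG2 window also holds 1 E-box in each orientation. Of the other windows of genes with opposite signs in the lines, that of CTNNB1 held 0 E-boxes and that of DSP 2. Over 35116 windows of 250 bases, 17.5% held the E-box, 32% the CCAAT box and 42.6% the GC box on either strand. The motifs are letters in these windows and were not tested for binding.

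SPOP itself went from 16.1 FPKM in the DU145 control to 2.77 with siRNA 1 and 2.96 with siRNA 2, and from 11.6 FPKM in the 769-P control to 1.53 and 1.39. These changes had an adjusted p of 0.134 in DU145 and 0.0948 in 769-P in limma, a fit across all genes whose knockdown test has 2 residual degrees of freedom. The libraries otherwise differed in low values. Of 384 olfactory receptor genes, 301 were above 0 in the DU145 control and 250 in 769-P siRNA 2, with means of 0.345 and 0.227 FPKM, against 4 to 6 in each other library. Depth is not known directly, and the steps of low values put it between 0.683 and 1.41 times that of the 769-P control.

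The lines carried different cadherins. DU145 expressed CDH1 and nearly no CDH2 or CDH6, whereas 769-P expressed CDH2 with some CDH6 and nearly no CDH1. CDH1 was at 8.87, 15.9 and 17.7 FPKM in DU145 (NC, siRNA 1 and siRNA 2, the order used throughout) and at 0.0460, 0 and 0.0977 FPKM in 769-P. All DU145 libraries lay above all 769-P libraries, and the difference was 3.80 on the log2(FPKM + 1) scale (SE 0.26, adjusted p = 6.38e-06, limma on 3 libraries against 3). The highest 769-P value, with siRNA 2, lay below the olfactory receptor mean of its library. The 769-P control value lay above that of its own library (0.00908 FPKM). In bulk RNA, fewer cells expressing a gene and less RNA per cell cannot be told apart.

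CDH2 was at 80.6, 99.1 and 78.1 FPKM in 769-P and at 0.564, 0.295 and 0.225 FPKM in DU145. The groups did not overlap, and the difference DU145 minus 769-P was -6.00 (SE 0.18, adjusted p = 5.29e-07, limma). CDH6 was at 4.84, 9.06 and 7.67 FPKM in 769-P and at 0.152, 0.0739 and 0.0376 FPKM in DU145. Its groups were also apart, with a log2 difference of -2.88 (SE 0.24, adjusted p = 1.96e-05, limma). Its DU145 control value was under the olfactory receptor mean of that library. Its values with siRNA 1 and siRNA 2 were above the means of their own libraries (0.00687 and 0.00828 FPKM).

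When the FPKM of CDH1, CDH2 and CDH6 were added, the sum was 9.59, 16.3 and 18.0 in DU145 and 85.5, 108 and 85.9 in 769-P. CDH1 made up 92.5%, 97.7% and 98.5% of the sum in DU145. CDH2 made up 94.3%, 91.6% and 91.0% in 769-P, where CDH6 made up 5.66%, 8.37% and 8.93%. Within this sum, the share of CDH1 in DU145 and of CDH2 in 769-P was thus above 90% in every library (the lowest was 91.0%), with or without SPOP knockdown. The sum leaves out CDH3 and CDH24, which were both above CDH1 in every DU145 library.

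Other cadherins were also present. Among the 22 cadherins measured, P-cadherin (CDH3), a classical cadherin of basal epithelia, was the highest in DU145 at 58.6 ± 24.5 FPKM (SD, n = 3 libraries), followed by the type II cadherin CDH24 at 29.5 ± 3.6 and CDH1 at 14.2 ± 4.68. In 769-P the order was CDH2 at 85.9 ± 11.5 FPKM, CDH24 at 10.3 ± 2.61, CDH6 at 7.19 ± 2.15 and CDH16, the kidney-specific cadherin, at 5.5 ± 3.86. CDH3 was between 0 and 0.442 FPKM in 769-P, and its line difference was 5.55 (SE 0.30, adjusted p = 2.15e-06, limma). CDH16 was at 0.229, 0 and 0 FPKM in DU145 (log2 difference -2.43, adjusted p = 0.000931, limma), and CDH24 was 1.44 higher in DU145 on that scale (adjusted p = 0.000468, limma). CDH3 and CDH16 passed the filter for testing only through the line where they were high.

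**Figure D1:**
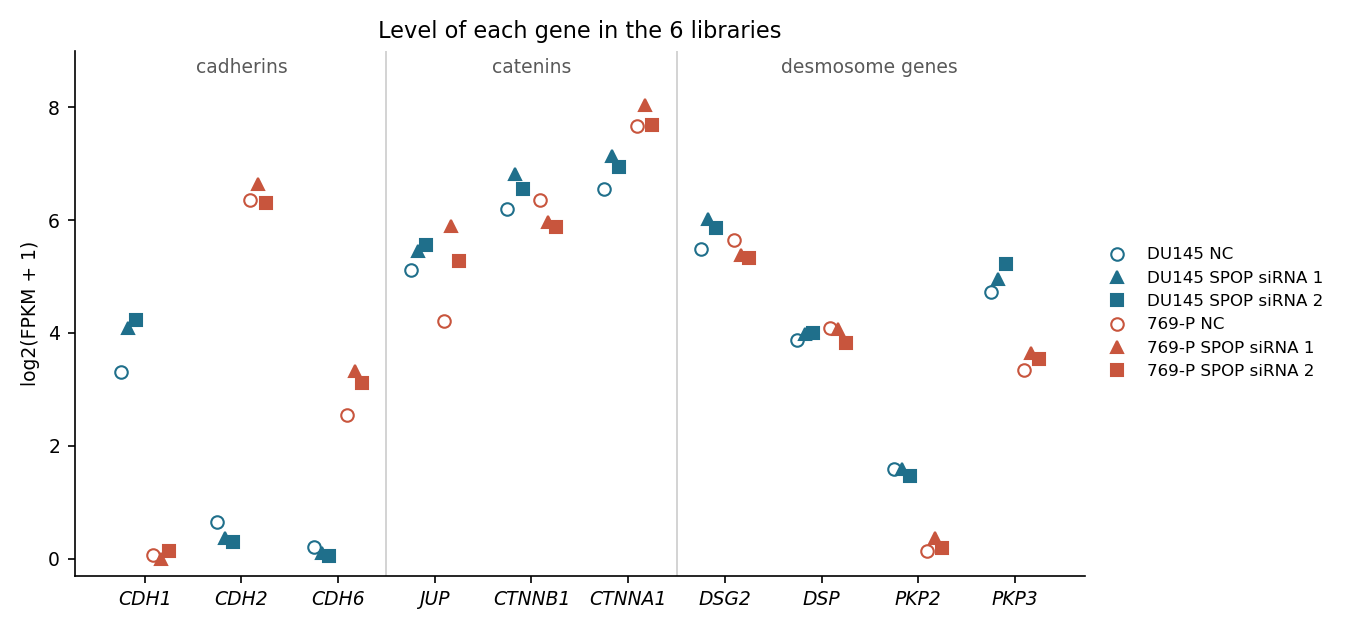
Levels of the 10 genes on the log2(FPKM + 1) scale in each of the 6 libraries, with 1 point per library, control and siRNA libraries marked apart and the lines in separate colours. CDH1 sits at 8.87 to 17.7 FPKM in DU145 and under 0.1 FPKM in 769-P, CDH2 shows the opposite, and DSP, DSG2, JUP and CTNNB1 have overlapping ranges.

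Below the cadherins, the catenins were abundant in both lines. Alpha-catenin (CTNNA1), the link to actin, was the highest of the 10 genes in each line, at 93.0, 139 and 122 FPKM in DU145 and 202, 262 and 204 FPKM in 769-P. The ranges did not overlap, and the log2 difference was -0.92 (SE 0.19, adjusted p = 0.00391, limma). Beta-catenin (CTNNB1) was at 72.1, 112 and 92.2 FPKM in DU145 and at 80.7, 61.3 and 57.9 FPKM in 769-P. The ranges overlapped, the log2 difference of 0.45 (SE 0.21) had an adjusted p of 0.104 in limma, and without the DU145 control it was 0.62 with an adjusted p of 0.0463.

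Plakoglobin was at 33.5, 42.8 and 46.1 FPKM in DU145 and at 17.6, 58.2 and 37.6 FPKM in 769-P. The 769-P control was the lowest library of the 6 and 769-P siRNA 1 the highest, so the lines overlapped. Their log2 difference was 0.25 (SE 0.37, adjusted p = 0.610, limma), and it became -0.21 when the 769-P control was left out. The ratio of JUP to CTNNB1 was 0.465, 0.381 and 0.50 in DU145 and 0.218, 0.949 and 0.649 in 769-P. Added together, JUP and CTNNB1 gave 106, 155 and 138 FPKM in DU145 and 98.3, 119 and 95.5 FPKM in 769-P. CTNNA1 was 0.881, 0.898 and 0.879 times this sum in DU145 and 2.05, 2.19 and 2.13 times it in 769-P, so this ratio differed between lines and little within them.

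**Figure D2:**
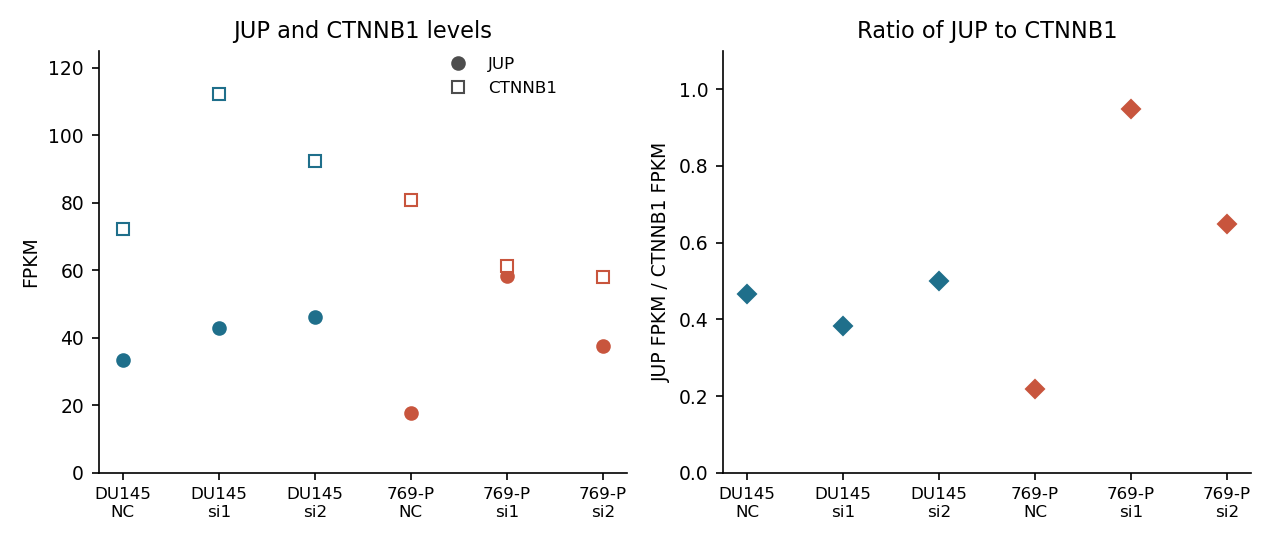
FPKM of JUP and CTNNB1 in each library, and the ratio of JUP to CTNNB1, with control and siRNA libraries marked. The ratio lies between 0.381 and 0.50 in DU145, and in 769-P it is 0.218 in the control, 0.949 with siRNA 1 and 0.649 with siRNA 2.

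Among the desmosome genes, desmoplakin (DSP) and desmoglein 2 (DSG2) overlapped between the lines, and the plakophilins did not. DSP was at 13.7, 14.8 and 15.1 FPKM in DU145 and at 16.04, 15.9 and 13.1 FPKM in 769-P, with a log2 difference of -0.04 (SE 0.16, adjusted p = 0.856, limma) that was 0.0068 without the 769-P control. DSG2, the desmosomal cadherin of simple epithelia, was at 43.9, 63.8 and 57.2 FPKM in DU145 and at 49.3, 40.8 and 39.1 FPKM in 769-P. Its ranges overlapped (log2 difference 0.34, SE 0.19, adjusted p = 0.174, limma).

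Plakophilin 3 (PKP3) was at 25.4, 29.96 and 36.4 FPKM in DU145 and at 9.11, 11.5 and 10.6 FPKM in 769-P. Plakophilin 2 (PKP2) was at 2.0, 2.02 and 1.75 FPKM in DU145 and at 0.103, 0.290 and 0.146 FPKM in 769-P. Both were higher in all DU145 libraries. The log2 difference was 1.46 (SE 0.19, adjusted p = 0.000261, limma) for PKP3 and 1.31 (SE 0.19, adjusted p = 0.000534, limma) for PKP2. The sum of the 4 desmosome genes was 85.1, 111 and 110 FPKM in DU145 and 74.6, 68.5 and 62.9 FPKM in 769-P.

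In all, 6 of the 10 genes differed between the lines, against 46.4% of all genes tested, and nothing particular to the 10 genes is read from this count. Among the 6, CDH1, CDH2, CDH6 and PKP2 passed the filter wholly or mostly through the line where they were high. CDH1, PKP2 and PKP3 were higher in DU145, where 29.9% of all genes were, and CDH2, CDH6 and CTNNA1 were higher in 769-P, where 16.5% were. For these 6 genes the libraries of the lines did not overlap, as for 56.3% of all genes (35.1% higher in DU145 and 21.2% higher in 769-P). The median line difference was 0.29 over the 10 genes and 0.16 over all genes tested, and quantile normalization moved the latter to -0.05.

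The genes were also ordered by their level within each line. In DU145 CTNNA1 (118 ± 23.3 FPKM, SD, n = 3) and CTNNB1 (92.2 ± 20.1) had overlapping ranges and led. Within each library CTNNA1 was above CTNNB1, and CTNNB1 lay above DSG2 (55.0 ± 10.1) in all libraries. The range of DSG2 overlapped that of JUP (40.8 ± 6.55), and the range of JUP overlapped that of PKP3 (30.6 ± 5.5). Within each DU145 library DSG2 was still above JUP, and JUP above PKP3. PKP3 lay above DSP (14.5 ± 0.721) in all DU145 libraries, and DSP overlapped CDH1. In 769-P CTNNA1 (222 ± 34.1 FPKM) lay above CDH2 in all libraries, CDH2 overlapped CTNNB1 (66.7 ± 12.3), and DSG2 (43.0 ± 5.48) overlapped JUP (37.8 ± 20.3). DSP (15.0 ± 1.64), PKP3 (10.4 ± 1.20) and CDH6 followed in that order, each above the next in all libraries, so DSP and PKP3 stood in the reverse order to DU145.

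After SPOP knockdown, JUP was the 1 gene of the 10 that passed 2-fold with both siRNAs in 769-P, and CDH1 was the 1 gene that passed 1.5-fold in DU145. Each siRNA library was set against the control of its line, with no test possible on the control side, and a gene was counted when both siRNAs passed in the same direction. JUP in 769-P went from 17.6 FPKM to 58.2 with siRNA 1 and 37.6 with siRNA 2, which is 3.18-fold and 2.07-fold on FPKM + 1. In 769-P 0.657% of all genes passed 2-fold upward and 0.565% downward, 3.6% passed 1.5-fold upward and 7.32% in either direction, and JUP ranked 62 among 11865 genes by the smaller of its increases. In limma its mean log2 change was 1.36 (SE 0.31), with an unadjusted p of 0.00567 and an adjusted p of 0.656. In DU145 the log2 change of JUP was 0.34 and 0.45, under 1.5-fold with both siRNAs.

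CDH1 in DU145 went from 8.87 to 15.9 and 17.7 FPKM, 1.71-fold and 1.9-fold on FPKM + 1. In DU145 4.72% of all genes passed 1.5-fold upward and 1.19% downward (5.91% in all), and CDH1 ranked 226 among 11865. At 2-fold 0 of the 10 genes passed in DU145, where 0.666% of all genes passed upward and 0.329% downward (0.995% in all). Its mean log2 change of 0.85 had an unadjusted p of 0.0172 and an adjusted p of 0.769 in limma. The DU145 control behind it is the library with the olfactory receptor values, and the change still passed 1.5-fold with those values subtracted. CDH6 in 769-P went from 4.84 to 9.06 and 7.67 FPKM, which is 1.72-fold and 1.48-fold on FPKM + 1, just short of the threshold with siRNA 2 (unadjusted p = 0.0395, adjusted p = 0.708, limma). It passed 1.5-fold with both siRNAs after centring on the median of all genes or with a pseudocount of 0.1.

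Beta-catenin and desmoglein 2 were higher with both siRNAs in DU145 and lower with both in 769-P. CTNNB1 changed by 0.63 and 0.35 on the log2 scale in DU145 and by -0.39 and -0.47 in 769-P. The difference of 0.92 between these mean changes had an unadjusted p of 0.0286 and an adjusted p of 0.999 in limma. DSG2 changed by 0.53 and 0.37 in DU145 and by -0.27 and -0.33 in 769-P, a difference of 0.75 (unadjusted p = 0.0464, adjusted p = 0.999, limma). DSP had the same signs with smaller values. CDH6 had the reverse signs as deposited, but its change in DU145 turned positive when the olfactory receptor mean was subtracted. Values above the control with both siRNAs in DU145 and below it with both in 769-P, of any size, were seen in 10.4% of all genes, and the reverse in 3.39%.

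**Figure D3:**
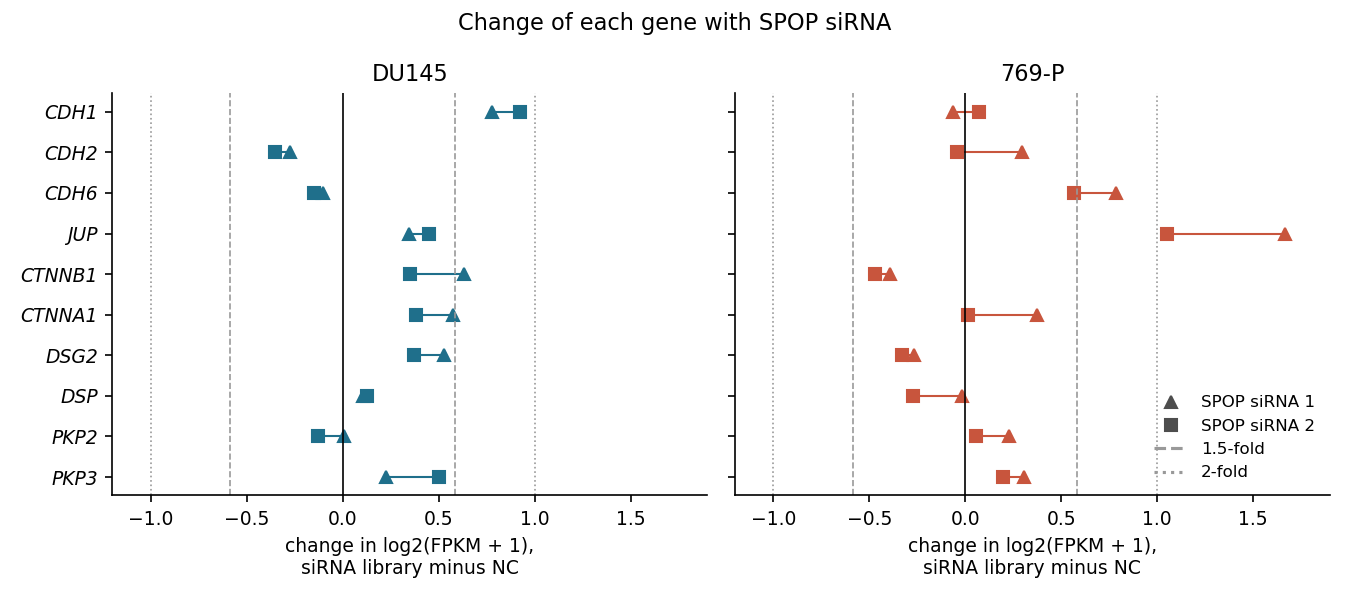
Change of each of the 10 genes on the log2(FPKM + 1) scale with each siRNA relative to the matching control, with DU145 and 769-P side by side and lines at 1.5-fold (dashed) and 2-fold (dotted). JUP lies past 2-fold with both siRNAs in 769-P, CDH1 lies past 1.5-fold with both in DU145, and the other genes have at least 1 siRNA within 1.5-fold.

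By limma 0 of the 10 genes passed an adjusted p of 0.05 for the knockdown in DU145, in 769-P or for the difference between the lines, where 0.135%, 0.101% and 0.169% of all genes did. At an unadjusted p under 0.05 the numbers were 1 (CDH1), 2 (JUP and CDH6) and 2 (CTNNB1 and DSG2), against 6.27%, 6.97% and 2.74% of all genes. Over the 10 genes, 7 were higher and 2 lower with both siRNAs in DU145, where 43.5% and 22.2% of all genes were. In 769-P 5 were higher and 3 lower, against 31.5% and 39.5%. The median of the mean changes was 0.38 in DU145 and 0.13 in 769-P, against 0.09 and -0.03 over all genes tested. In the DU145 control CDH2 was at 0.564 FPKM, above the olfactory receptor mean of that library (0.345 FPKM), and CDH6 at 0.152, below it. The small mean decreases of CDH2 and CDH6 in DU145 became 0.04 and 0.07 when the mean of each library was subtracted. The change of PKP2 became 0.11.

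The other cadherins, adherens junction partners, desmosome genes, tight junction genes and genes of beta-catenin destruction and feedback were taken from lists. Their counts stand against 29.9% of all genes higher in DU145 and 16.5% higher in 769-P. CDH3, CDH16, DSC2, CLDN16, DKK1 and SP5 were under 1 FPKM in all libraries of 1 line. They passed the filter for testing only through the other line. The tight junction genes TJP3, CLDN7, CLDN10, CGN and MARVELD3 were under 1 FPKM in all 769-P libraries. So were RNF43 and TCF7L1 of the beta-catenin list. These genes passed the filter wholly or mostly through DU145, and the counts of genes higher in DU145 include them. Of 19 other cadherins 3 were tested, with 2 higher in DU145 (CDH3 and CDH24) and 1 in 769-P (CDH16). Of 14 adherens junction partners tested, 6 were higher in DU145, 3 in 769-P and 5 did not pass. The nectins PVRL1 (26.8 ± 4.86 against 1.73 ± 0.386 FPKM, log2 difference 3.35) and PVRL2 (79.7 ± 21.8 against 25.9 ± 1.54, 1.55) were among those higher in DU145. Vinculin (VCL), an actin-binding partner of alpha-catenin, was higher in 769-P (151 ± 24.8 against 62.5 ± 1.77 FPKM, log2 difference -1.24).

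Of 5 other desmosome genes tested, 2 were higher in DU145 and 3 did not pass. Desmocollin 2 (DSC2) was at 3.65 ± 0.441 FPKM in DU145 and 0.0858 ± 0.0440 in 769-P (log2 difference 2.09), and periplakin (PPL) at 11.8 ± 3.42 and 2.94 ± 3.04 (1.93). PPL did not pass without the DU145 control and 769-P siRNA 2. Of 21 tight junction genes tested, 10 were higher in DU145, 6 in 769-P and 5 did not pass. Claudin 2 (CLDN2), a pore-forming claudin of the proximal tubule, was at 104 ± 27.0 FPKM in 769-P and 1.22 ± 0.677 in DU145 (log2 difference -5.57). Claudin 16 (CLDN16), known from the thick ascending limb, was at 10.5 ± 3.69 and 0.0727 ± 0.0635 FPKM (-3.38), and LSR, a protein of tricellular junctions, was at 4.01 ± 1.29 in 769-P and 92.5 ± 21.5 in DU145 (4.23).

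Of 15 genes of beta-catenin destruction and feedback tested, 7 were higher in DU145, 0 in 769-P and 8 did not pass, against 46.4% of all genes that differed in either direction. The Wnt antagonist DKK1 was at 49.9 ± 7.47 FPKM in DU145 and 0.147 ± 0.133 in 769-P (log2 difference 5.47), and the Wnt inhibitor NKD2 at 20.3 ± 12.1 and 1.1 ± 0.591 (3.25). SP5, a transcriptional target of beta-catenin, was at 3.73 ± 1.1 FPKM in DU145 and listed at 0 in all 769-P libraries.

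**Figure D4:**
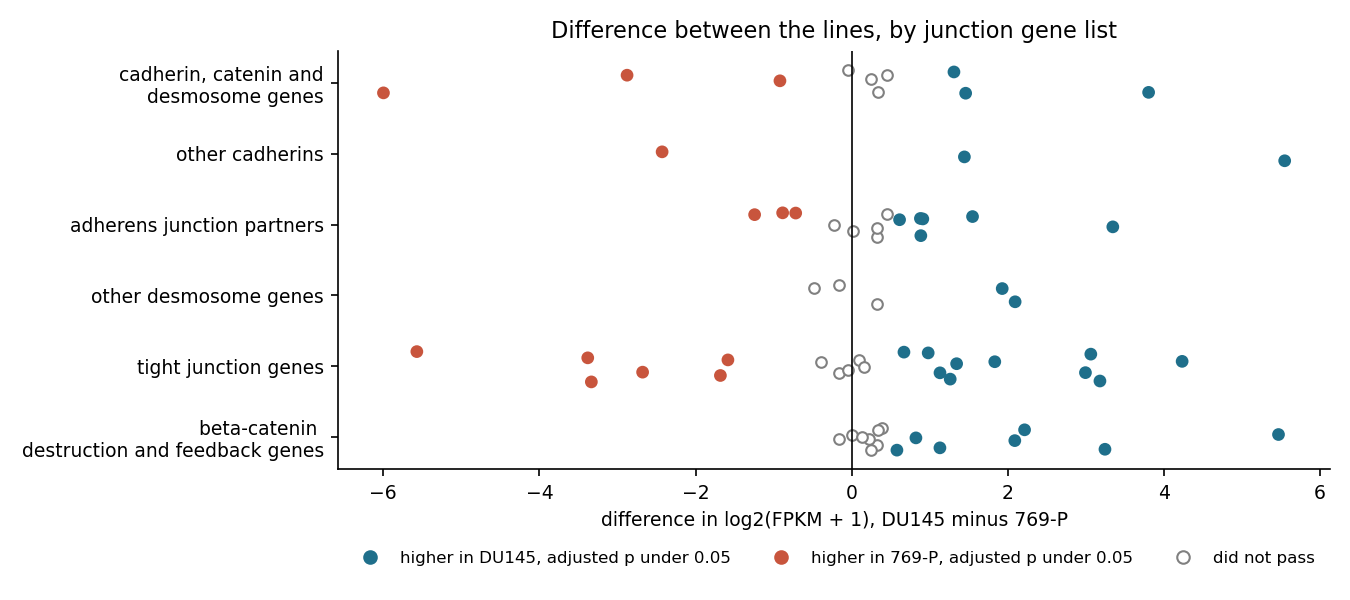
Line difference (DU145 minus 769-P, log2(FPKM + 1)) of each tested gene by junction list, with genes past an adjusted p of 0.05 marked. Values reach 5.55 for CDH3 and 5.47 for DKK1 on the DU145 side and -6.00 for CDH2 and -5.57 for CLDN2 on the 769-P side.

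With both siRNAs in DU145, 1 of 3 other cadherins (CDH3) and 1 of 5 other desmosome genes (PPL) passed 1.5-fold upward, and 0 of the genes in the other junction lists did, against 4.72% of all genes. CDH3 went from 35.9 FPKM to 55.5 and 84.5, and PPL from 7.98 to 13.0 and 14.5. In 769-P 0 of 3 other cadherins, 0 of 5 other desmosome genes and 0 of 15 beta-catenin genes passed 1.5-fold, against 7.32% of all genes in either direction. The adherens junction list had 2 of 14 genes past 1.5-fold upward in 769-P, against 3.6% of all genes. These were the phosphatase PTPRF (37.7 to 70.8 and 62.1 FPKM) and CTNNBIP1, which blocks the binding of beta-catenin to TCF (5.11 to 8.80 and 8.5 FPKM). Of the tight junction genes, CGNL1 was past 1.5-fold upward in 769-P (3.76 to 14.7 and 6.27 FPKM) and 3 were past it downward. These 3 were OCLN (3.86 to 1.83 and 1.77 FPKM), CLDN16 (14.8 to 8.56 and 8.21 FPKM) and CLDN1 (288 to 148 and 176 FPKM), against 3.73% of all genes past 1.5-fold downward.

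Genes with a pattern like JUP were ranked by Pearson correlation of log2(FPKM + 1) over the 6 libraries, which share their line, siRNA and depth. The highest values were 0.980 for TXNRD3 (which shares its entry with TXNRD3NB), 0.979 for FSTL3, 0.976 for FAM185A, 0.967 for MAEA and 0.966 for ZNF845. They are the highest of 11855 genes compared, and 14 genes reached 0.95.

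Marker lists were read beside these results. In DU145 the prostate markers were low, with 7 of 10 under 1 FPKM in all libraries. TMPRSS2 was listed at 0 there and KLK3 was at 0 to 0.312 FPKM. In 769-P the renal marker PAX8 was at 106 to 125.5 FPKM, against 1.103 to 1.47 in DU145, the renal list summed to 254 to 264 FPKM against 21.9 to 31.1, and CA9 was listed at 0. The epithelial list summed to 1901 to 2733 FPKM in DU145 and 490 to 610 in 769-P. All 7 tested genes of it were higher in DU145, where 29.9% of all genes were. Of these, ESRP2 and ST14 were under 1 FPKM in all 769-P libraries, as CDH1 was. They passed the filter for testing only through DU145. Within 769-P this list summed to 490 FPKM in the control and 518 and 610 with the siRNAs. KRT7, its 1 gene past 1.5-fold with both, went from 22.5 to 55.2 and 35.7 FPKM, where JUP also was higher. The list did not move as a whole. Of its 7 tested genes, 2 were higher and 2 lower with both siRNAs in 769-P, and the median change was -0.09. The fibroblast list summed to 1.78 FPKM in the 769-P control and 10.4 and 7.81 with the siRNAs, where JUP also was higher. Most of that was COL1A1 (1.71, 9.68 and 7.36 FPKM), 6 of the 7 fibroblast genes were under 1 FPKM in all 769-P libraries, and DCN and LUM were listed at 0 there. The part of either list in the JUP change was not tested. Endothelial markers summed to 0 to 0.404 FPKM and leukocyte markers to 0.291 to 1.76 FPKM over the 6 libraries.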

How the data were processed

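RNA-Seq was performed on 6 libraries, 1 for each siRNA in each line. Where the study's methods speak of 2 biological replicates, the labels list a single library each, so p-values measure the spread between these libraries, which include different siRNAs. The authors trimmed reads with cutadapt after FastQC, aligned them with TopHat2 (hg19) and deposited the FPKM of each gene, computed with Cufflinks. Versions and annotation are not given in the sources used here. The labels name 10 µg of RNA and another kit than the methods.

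From the deposited FPKM, log2(FPKM + 1) was computed, which understates changes of low genes, and rows of 1 symbol were summed. Genes that averaged 1 FPKM or more (11865) were fitted with limma 3.58.1 in R 4.3.3 (trend, Benjamini-Hochberg adjustment), as 3 libraries against 3 (4 residual degrees of freedom) for the lines and as 4 groups (2 residual degrees of freedom) for the knockdown. The scripts were tested on simulated data. Sums and ratios were made with pandas 2.3.3 and numpy 2.4.6 (Python 3.11.15).

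The condition names (NC, siRNA 1, siRNA 2) in the sample titles are shared by the lines. Deviations from the line means correlated by 0.350, 0.325 and 0.246 for the same condition, each over 0.1. These deviations include the knockdown, which both lines share. The main fits do not pair the lines by condition, so their p-values leave such a pairing out. It enters only in the alternative called the replicate block. With the block 6716 genes were called between the lines, against 5509, and the members called stayed at 6.

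The members and lists were chosen with earlier results of these data known. The named genes are the 10 members, SPOP, from each junction list the 3 genes with the largest line difference past an adjusted p of 0.05 and every gene past 1.5-fold with both siRNAs in a line, the 5 genes most like JUP, and at most 2 genes per marker list. Further markers (TMPRSS2, KLK3, CA9, DCN, LUM, ESRP2 and ST14) were named after their values were seen. So were further junction genes, named only for the filter or for the signs of their changes. CTNND1 and COL3A1 share an entry with other genes and were not analysed alone. Alternatives were a pseudocount of 0.1, no filter or a mean of 5 FPKM, quantile normalization, median centring, no trend, the block, single siRNAs, each library left out and, chosen after seeing the data for the tests and fold counts, subtraction of the olfactory receptor mean and leaving out both libraries with those values.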

Additional observations from a re-analysis of the deposited data

Results flagged for a closer look

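Of the 10 genes and those named by rule from the junction lists, 5 moved in opposite directions in DU145 and 769-P with both siRNAs. Other listed junction genes and the renal marker PAX8 did so too. For example, APC, CLDN12, TCF7L1 and PAX8 had the signs of CTNNB1, and MARVELD3 had the reverse. Over all genes tested, 10.4% were higher with both siRNAs in DU145 and lower with both in 769-P, and 3.39% the reverse. The difference of the mean log2 changes, DU145 minus 769-P, was 0.92 for CTNNB1, 0.75 for DSG2, 0.26 for DSP, -0.80 for CDH6 and 0.43 for DKK1. In limma the test of this difference gave an adjusted p of 0.999 for each of the 5 genes. CDH6 was at 0.152, 0.0739 and 0.0376 FPKM in DU145, and DKK1 at 0.259, 0 and 0.183 FPKM in 769-P. CDH6 in the DU145 control and DKK1 with siRNA 2 in 769-P were under the olfactory receptor mean of their library. CDH6 with both siRNAs and DKK1 in the 769-P control were above that of theirs. With the olfactory receptor mean subtracted from each library, the mean change of CDH6 in DU145 turned from -0.13 to 0.07, the sign it had in 769-P. The mean change of DKK1 in 769-P was -0.21 before and -0.32 after the subtraction. The subtraction took 0.227 FPKM from 769-P siRNA 2, which left DKK1 at 0 there, and 0.00908 FPKM from the control.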

How the results depend on the processing

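Direction reversed for JUP and DSP between the lines without the 769-P control (-0.21 and 0.0068 on the log2 scale, and up to 0.63 and down to -0.13 without another library), and for OCLN, which passed in no setting. OCLN was -0.31 with quantile normalization, -0.03 and -0.05 without 769-P siRNA 1 and siRNA 2, -0.057 to 0.36 over all libraries left out in turn (the lowest without the DU145 control), and -0.20 without both libraries with olfactory receptor values. The 6 genes called between the lines numbered 6 in each alternative but 2. With a mean of at least 5 FPKM 4 were called, since CDH6 and PKP2 fell below the filter, and CTNNB1 made 7 without the DU145 control. With that filter 3590 of all genes were called between the lines, against 5509.

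With the replicate block the members called stayed at 6 between the lines and 0 for the knockdown, and 8 genes in place of 20 were called for the knockdown difference between the lines. It changed no call of the 10 genes. Genes called for the knockdown in DU145 (16) were 678 without filter, 4 at a mean of 5 FPKM and 0 to 30 leaving out 1 siRNA library. In 769-P (12) they were 6 without filter and 0 to 7. For the difference between the lines (20) they were 0 with a pseudocount of 0.1, 326 without filter, 3 at a mean of 5 FPKM, 10 with quantile normalization and 0 to 37. A line left with 1 siRNA library was assumed to vary like the other.

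Of the 10 genes past 1.5-fold with both siRNAs, DU145 had 2 with a pseudocount of 0.1 (CDH1, and CDH2 downward) and 1 to 2 with 1 siRNA. In 769-P 2 passed with that pseudocount, with median centring and for the mean of the siRNAs, and 1 to 2 with 1 siRNA. Over all genes in DU145, 1.5-fold gave 1132 with that pseudocount, 1458 for the mean, 1140 without filter, 440 at a mean of 5 FPKM and 1787 to 2308 with 1 siRNA, against 701. At 2-fold (118) the numbers were 320, 275, 64 at a mean of 5 FPKM, 185 with background subtracted and 384 to 538. In 769-P, 1.5-fold (869) gave 1489, 1668, 573 at a mean of 5 FPKM and 1723 to 2388, and 2-fold (145) gave 436, 303, 92 and 299 to 567. The cause of the changes with pseudocount and normalization was not tested. FPKM hold no counts, so values under about the olfactory receptor mean could not be given a precision.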
